A study of Mus musculus with 5375 samples.

Results

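The members described here are the genes for the subunits of oxidative phosphorylation, the respiratory chain and ATP synthase of mitochondria. They were chosen by symbol alone, from the nuclear families Ndufa, Ndufb, Ndufc, Ndufs, Ndufv, Sdha to Sdhd, Uqcr, Cox4 to Cox8 and Atp5, without symbols ending in -ps and without the Ndufaf assembly factors, together with the protein genes of mitochondrial DNA. This gave 102 of the 35351 genes in the count tables, 89 of them nuclear and 13 mitochondrial. Complex I (NADH dehydrogenase) had 41 nuclear and 7 mitochondrial members, complex II (succinate dehydrogenase) 4 nuclear members, complex III (cytochrome bc1) 8 and 1, complex IV (cytochrome c oxidase) 19 and 3, and complex V (ATP synthase) 17 and 2. Complexes were assigned by symbol prefix alone, which counts Ndufa4 and Ndufa4l2 with complex I without a check of the complex their proteins join. The rule also took in 4 genes that the annotation holds as processed pseudogenes, Cox6c2, Ndufa11b, Ndufb4c and Ndufs6b.

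Single cells were sorted from lungs of adult wild-type female BALB/c mice after tail vein injection of 4T1-GFP cells, a mouse mammary carcinoma line carrying a fluorescent protein and a dye that is diluted by division. Endothelial cells (ECs) came from uninjected mice (day 0, 4 mice) and from mice 1.5 and 3.5 days after injection (3 mice each). Tumour cells (TCs) came from the culture before injection (1 pool), from day 1.5 as intravascular and extravascular cells of the same 4 mice, separated by an antibody given into the circulation, and from day 3.5 as dye-retaining latent cells of 4 mice and dye-diluted proliferative cells of 1 pool. The deposited annotation ties every cell of this pool to mouse 12, one of the latent mice. Each group of tumour cells is a gate of 1 line, and in vivo gates were sequenced in lanes of their own, so gate and lane cannot be told apart. Latent and proliferative cells also differ from the day 1.5 gates in day. Endothelial days had lanes of their own too, so day and lane cannot be told apart there, even among mice sorted on the same day. Reads were summed over the cells of each mouse or pool, called a library here, and values are in CPM, reads of a gene scaled to a common library total, unless another scale is named.

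The respiratory chain passes electrons from NADH and succinate to oxygen, and complexes I, III and IV pump the protons that drive ATP synthase. Its subunits come from both genomes: mitochondrial DNA holds the membrane core of the proton pumps and of ATP synthase, and the nucleus holds all of complex II, the redox subunits that take up electrons from NADH, the catalytic head of ATP synthase and the many small accessory subunits. Capillary endothelium is usually described as leaning on glycolysis, and tumour cells as using both routes.

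The 10 EC libraries held 75.6 to 129.5 Mreads (megareads) from 180 to 335 cells each, and the 14 TC libraries 31.9 to 163 Mreads from 69 to 369 cells, with a median of 334250 reads per kept EC and 456396 per kept TC. Endothelial markers summed to between 14275 and 26270 CPM in ECs and to at most 62.9 in TCs, and markers of the tumour line to between 2735 and 6435 CPM in TCs and to at most 17.5 in ECs. Immune markers reached 847 CPM in the highest day 0 EC library and 270 in the highest latent library, against at most 24.6 in the day 1.5 tumour gates, with 4 of the 9 markers under 1 CPM in latent cells. Red cell markers summed to 231 to 2831 CPM in day 0 ECs, 66.9 to 105 at day 1.5 and 159 to 253 at day 3.5. The part of immune and red cell reads in the results was not tested. Sums over cells do not show how reads were spread over them, so values per cell are given beside the results that use them.

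Per length of transcript, mitochondrial genes held the 4 highest levels of all members in day 0 ECs and in extravascular TCs. In day 0 ECs, mt-Co2, a copper-binding core subunit of complex IV, had a mean level per kilobase of transcript of 5948 CPM, followed by mt-Co3 at 4779, mt-Atp8 at 4533 and mt-Cytb, the core of complex III, at 3068 on the same scale. The highest nuclear member per kilobase was Cox4i1, a subunit of complex IV that every cell uses, at 2438, followed by Cox6a1 at 1991. In extravascular TCs the per-kilobase level was 8481 CPM for mt-Co2, 4609 for Cox4i1, 3510 for Cox8a and 3443 for Ndufb9, an accessory subunit of complex I. At the low end, mt-Nd6, the single member transcribed from the light strand, had 139 CPM per kilobase in day 0 ECs and 180 in extravascular TCs.

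Mouse mitochondrial genes overlap, so that a read over an overlap belongs to both genes. The pairs mt-Atp8 with mt-Atp6 (ATP synthase, chrM:7927-7969) and mt-Nd4l with mt-Nd4 (complex I, chrM:10167-10173) are shown because their levels cannot be fully separated; the sequences are from GRCm38 on the plus strand, with the shared bases in capitals and 15 bases of flank on each side.
mt-Atp8 and mt-Atp6: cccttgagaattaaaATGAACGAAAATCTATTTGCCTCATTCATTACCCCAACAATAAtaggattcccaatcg
mt-Nd4l and mt-Nd4: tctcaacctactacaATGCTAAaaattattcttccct
The shared run is 43 bases in the former pair and 7 bases in the latter. A second source of shared reads lies on chromosome 1, where 7 unprocessed pseudogenes hold 97.1% to 100% of their 50-base words in common with mt-Atp6, mt-Co1, mt-Co2, mt-Co3, mt-Nd3, mt-Nd4 or mt-Nd4l. Reads assigned to these copies came to between 12393 and 17456 CPM in EC libraries and between 10911 and 22277 in TC libraries. The copy of mt-Nd3 drew more reads than mt-Nd3 itself, 132 to 663 CPM against 33.3 to 177 in TCs, and that of mt-Atp6 2524 to 6763 CPM against 581 to 2006. The main values below are without the copies, and call counts and log2 ratios are also given with the reads of the copies added. Nuclear members share reads in the same way: 12 of them had 16 near copies, among them Gm12338, a copy of Cox7c, with 107 to 306 CPM in TCs against 94.5 to 265 for Cox7c, and 100% of the 50-base words of Ndufb4c lie in other genes (Ndufb4 and Gm16056).

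Several nuclear members exist as isoforms that differ by tissue, and the tissue-restricted forms were nearly absent. Cox4i2, the form of Cox4 known from lung and from low oxygen, had reads in 11 of 839 day 0 ECs, 19 of 941 at day 1.5 and 17 of 699 at day 3.5, and its highest library, mouse 3 at day 0 with 10.3 CPM, drew on a single cell for most reads. Cox4i1 in the same 10 libraries lay between 1468 and 3450 CPM. Cox7a1, the heart and skeletal muscle form of Cox7a, reached 94.6 CPM in day 1.5 mouse 6 and at most 4.1 in the other EC libraries; of its 8106 reads at day 1.5, 93.5% came from 1 cell. Cox8c had no read in any library, Cox8b none in ECs and 3 reads in all TCs, and Ndufa4l2, a paralog of Ndufa4 known for induction by low oxygen, had reads in at most 8 cells of any group. Cox6a2, the heart and skeletal muscle form of Cox6a, was the exception in the tumour line. It was read in 92 of 369 cultured cells, with 15.2 CPM in that pool, but in 1 of 325 intravascular, 3 of 306 extravascular, 9 of 329 latent and 0 of 237 proliferative cells; the last allows a share of up to 1.27% by counting error alone. Culture was 1 pool, so this difference has no replicate check.

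Of the 67 nuclear members whose RefSeq promoter (GRCm38.p6, 250 bases before to 50 after the start) could be matched, 27 (40.3%) held at least 1 of 3 motifs of factors known to act on these genes, against 13.4% of 27025 promoters. On both strands, the NRF1 word (the 10 letters in capitals in the stretches printed here, a palindrome) was in 5 members (7.46%, all promoters 1.07%), the ETS word CCGGAAG in 16 (23.9%, 9.93%) and the YY1 word AAGATGGC in 9 (13.4%, 3.19%), and a match is a description of the sequence only. The 4 members with the NRF1 word upstream of the start are shown because members that share the word had different values in latent cells; each stretch is 60 bases on the strand of the gene with the word in capitals.
Atp5k, chr5:108434415-108434474, minus strand: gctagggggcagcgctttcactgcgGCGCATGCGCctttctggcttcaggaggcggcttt
Cox6a1, chr5:115349086-115349145, minus strand: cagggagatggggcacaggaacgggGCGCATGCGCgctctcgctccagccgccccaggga
Atp5g2, chr15:102671055-102671114, minus strand: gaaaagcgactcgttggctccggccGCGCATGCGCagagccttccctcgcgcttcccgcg
Ndufa11, chr17:56717677-56717736, plus strand: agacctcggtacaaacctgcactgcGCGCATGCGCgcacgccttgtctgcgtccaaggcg
In the comparison of latent with extravascular cells below, these members had log2 fold changes of −1.07 (Atp5k), −0.31 (Cox6a1), −0.19 (Atp5g2) and −0.12 (Ndufa11), and of these only Atp5k and Cox6a1 passed the test. The fifth member, Uqcrc1, has the word after its start and had 0.49 (adjusted p = 0.149 by edgeR).

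Summed over members, nuclear genes held 28860 to 31181 CPM and mitochondrial genes 17761 to 21003 CPM in the 4 day 0 EC libraries. The ratio of the mitochondrial to the nuclear sum in day 0 mice 1 to 4 was 0.588, 0.582, 0.675 and 0.674. The lower pair was sorted with the day 1.5 mice and the higher pair with the day 3.5 mice. At day 1.5 the ratio was 0.657 in mouse 5, 0.404 in mouse 6 and 0.682 in mouse 7, and at day 3.5 it was 0.434 in mouse 9, 0.643 in mouse 10 and 0.880 in mouse 11. All 3 days overlapped in the ratio. The nuclear sum of all 3 day 1.5 mice lay above the 4 day 0 mice, by a mean log2 difference of 0.24 ± 0.14 (SD), and 0.12 without mouse 6. Relative to the housekeeping panel of the study the difference was 0.58 with all mice, 0.70 without mouse 5, 0.91 without mouse 7 and 0.12 without mouse 6, in which the panel summed to 8854 CPM against 13371 to 22168 in the other EC libraries. The mitochondrial sums overlapped. In all 3 day 1.5 mice the share of reads from other genes with transcripts of up to 700 bases was also higher, at 14.1% to 15.8% against 11.3% to 12.2%. Nuclear members of that length had a median log2 fold change of 0.30 from day 0 to day 1.5, against 0.21 for other well-expressed genes. With libraries scaled within classes of transcript length these medians were 0.07 and −0.01. The part of this shift in the nuclear sum was not tested.

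**Figure D1:**
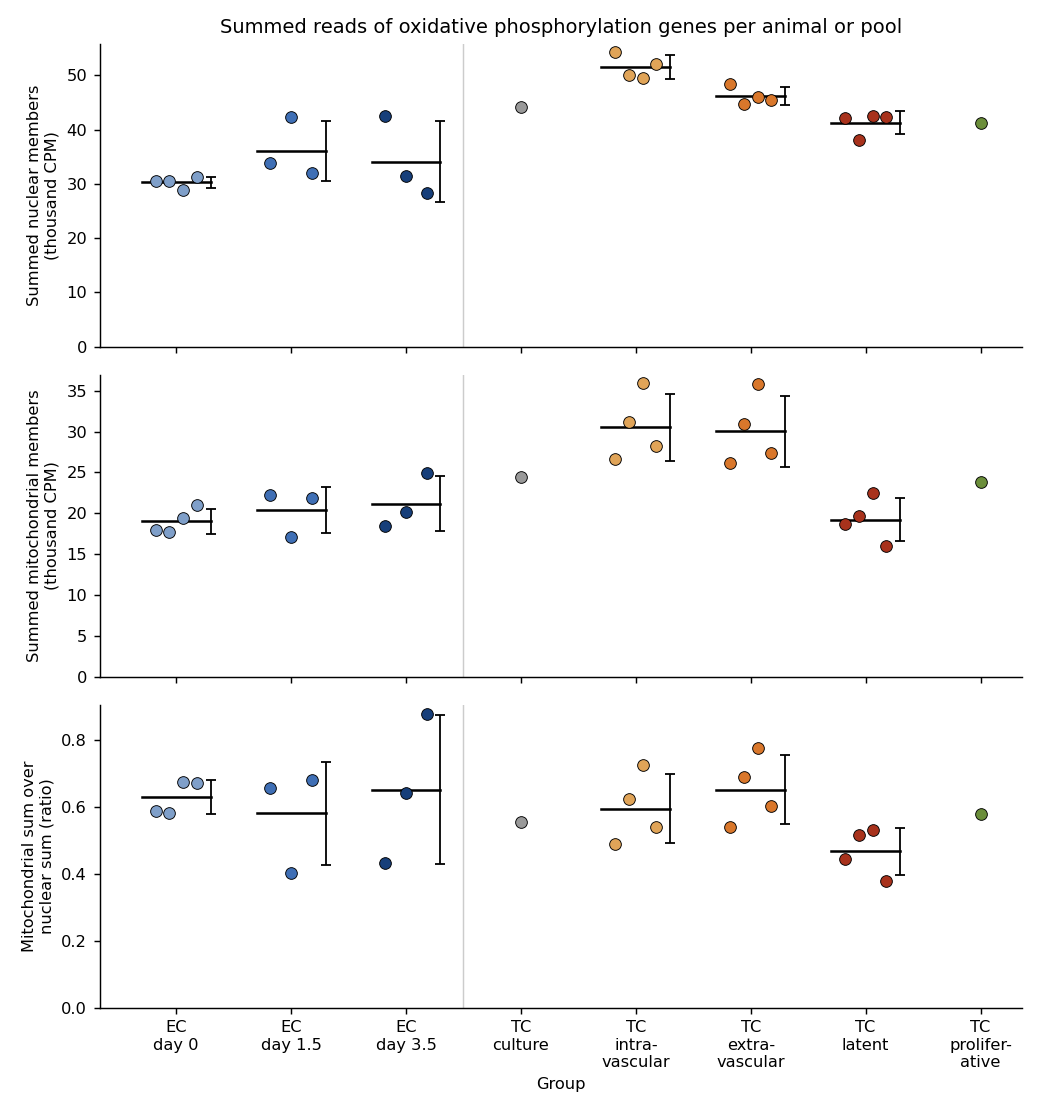
Summed CPM of nuclear members (top), of mitochondrial members (middle) and their ratio (bottom) by group; each point is a mouse or pool, lines are means and bars 1 SD, with none for the culture and proliferative pools. EC days overlap in the ratio, while the 4 latent libraries (0.379 to 0.530) lie below the 4 extravascular ones (0.539 to 0.778).

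ECs of mice 6 and 9 stood apart in the nuclear sum, with 42399 and 42569 CPM against 28315 to 33817 in the other 8 libraries. These 2 libraries also had the largest share of reads from other short transcripts (up to 700 bases), 15.8% and 17.2% against 11.3% to 14.5%. The log2 ratio changed by −0.15 from day 0 to day 1.5 and by −0.00 from day 0 to day 3.5, with SDs between mice of 0.28 and 0.34; without mouse 6 the former was 0.09, and without mouse 9 the latter was 0.26. Within the sort day shared with their own day 0 mice, the changes were −0.05 and −0.11. From day 1.5 to day 3.5 the log2 ratio changed by 0.15 ± 0.47 (SD), −0.10 without mouse 6 and 0.41 without mouse 9. With reads of copies added the 3 values were −0.13 (day 1.5 against day 0), 0.20 (day 3.5 against day 1.5) and 0.06 (day 3.5 against day 0). With all mice, each of the 3 changes was smaller than its SD, and without mouse 6 both changes that involve day 1.5 turned sign. Without mouse 11 the change from day 1.5 to day 3.5 was −0.10 and that from day 0 to day 3.5 −0.25.

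Gene by gene, no member passed the test over the endothelial days. Of 83 nuclear and 13 mitochondrial members that passed the filter on low counts, edgeR's quasi-likelihood test with Benjamini-Hochberg adjustment called 0 in each of the 3 comparisons, as it called 0 of all 17585 genes (0%). At an unadjusted p under 0.05 there were 6 nuclear and 0 mitochondrial members for day 1.5 against day 0, 3 and 0 for day 3.5 against day 1.5, and 9 and 2 for day 3.5 against day 0, beside 1422, 798 and 1541 of all genes. DESeq2 also called 0 members while calling 361, 133 and 506 genes of all. The nuclear members with the smallest p were Ndufv1, the flavin-binding subunit of complex I, at log2 −0.76 (SE 0.31, adjusted p = 0.585) and Ndufb2 at 0.65 (SE 0.27, adjusted p = 0.585) for day 1.5 against day 0. Ndufs3, a subunit of the arm that takes up electrons, had −0.71 (SE 0.23, adjusted p = 0.461) and Ndufs6 0.84 (SE 0.28, adjusted p = 0.467) for day 3.5 against day 0. In levels, Ndufs3 was 186 to 281 CPM at day 0, 182 to 196 at day 1.5 and 116 to 163 at day 3.5. Ndufs6 was 259 to 366 at day 0 and 385 to 841 at day 3.5. Both were picked for a small p in this same comparison, so the separation of their levels adds no support. By a normal approximation from the SE, which is narrower than the limits of the test itself, the median 95% half-width for well-expressed nuclear members was 0.54 log2. That is before adjustment over all genes, and the adjusted test needs larger changes still, so a count of 0 does not show that members were unchanged. With the sort day as a covariate, or within a sort day, 0 members were called as well, and with reads of copies added the mitochondrial calls were 0 too.

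Between intravascular and extravascular TCs the nuclear sum was lower outside the vessels. It was 54379, 50075, 49513 and 52056 CPM in the intravascular cells of mice 5 to 8 and 48431, 44796, 46054 and 45381 in their extravascular cells, lower in 4 of 4 mice with a mean log2 difference of −0.16 ± 0.04 (SD of the 4 differences within mice). The mitochondrial sums were 26639, 31207, 35961 and 28223 CPM inside and 26115, 30879, 35832 and 27342 outside. The order of the mice in the mitochondrial sum was 5, 8, 6 and 7 from low to high in both gates, and within mice it was lower outside in 4 of 4 by a mean log2 difference of −0.02 ± 0.02 (SD of the 4 differences). The ratio was higher outside in 4 of 4 mice, by log2 differences of 0.10 to 0.15 within mice (mean 0.13 ± 0.02). Set beside the spread between mice the same mean had an SD of 0.24, so the gates overlapped in the ratio although all 4 mice moved the same way. With reads of copies added the mean was 0.11.

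Of 86 nuclear members tested between these gates, 0 were higher and 6 lower in extravascular cells, beside 0.951% of 19249 genes called in either direction (0.416% higher, 0.535% lower); DESeq2 called 32 nuclear members, beside 5.35% of all genes. Of the 6, Ndufa8, Ndufb10 and Ndufb9 have transcripts over 700 and up to 1000 bases, a class in which 8.20% of 427 other genes with a mean level over 5 log2 CPM were called lower, or 1.87% of them with libraries scaled within length classes, where 2 of the 17 members of that class were called lower. Of the 6 calls, 5 belong to complex I. Ndufa8 was 398 to 433 CPM inside and 287 to 323 outside (log2 −0.52, SE 0.09, adjusted p = 0.0303), and Ndufb10 340 to 379 and 251 to 283 (−0.49). Ndufb9, Ndufb8 and Ndufs3 had −0.46, −0.49 and −0.46, and Uqcrb, a small subunit of complex III, −0.52. The levels of Ndufs3 were 205 to 236 CPM inside and 161 to 181 outside. Among mitochondrial members, 1 of 13 was called: mt-Co2 was 7179 to 8652 CPM inside and 5510 to 6107 outside (log2 −0.50, SE 0.10, adjusted p = 0.0379), and with reads of its copy added it was −0.35 and not called. These calls rest on few libraries. With the mouse as a block the test called 3 nuclear members (Atp5b, a catalytic subunit of ATP synthase, higher at 0.73, and Atp5g1 and Ndufb9 lower at −0.48 and −0.46) and mt-Co2, beside 0.231% of all genes in that fit. Leaving out any of the 4 intravascular libraries, or the extravascular library of mouse 7 or 8, left 0 nuclear and 0 mitochondrial calls; leaving out extravascular mouse 6 left 2 and 0, extravascular mouse 5 gave 20 and 2, latent mouse 10 gave 17 nuclear calls, and latent mouse 9, 11 or 12 gave 3.

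Latent TCs had less mitochondrial message than extravascular TCs relative to nuclear members. The mitochondrial sum in latent mice 9 to 12 was 18704, 19709, 22504 and 16063 CPM, all below the lowest extravascular library at 26115 (mean log2 difference −0.64 ± 0.20). The nuclear sum was 42140, 38132, 42421 and 42330 CPM, also below all extravascular libraries (−0.16 ± 0.06). The ratio was 0.444, 0.517, 0.530 and 0.379, against 0.539 to 0.778, a log2 difference of −0.48 ± 0.23, or −0.42 with reads of copies added. Latent cells had fewer cells with over 5% mitochondrial reads, 2 to 6 per library against 8 to 20 in extravascular cells, and without such cells the log2 ratio difference was −0.23. The median cell had 1.48% to 1.94% mitochondrial reads in latent and 2.23% to 3.16% in extravascular libraries, so the typical cell was also lower.

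All 13 mitochondrial members had a negative log2 fold change in latent against extravascular cells, and 11 passed the test, beside 38 of 86 nuclear members and 8.57% of all genes (3.6% higher, 4.97% lower). The median was −0.90 for mitochondrial members, −0.31 for nuclear members tested and 0.03 for all genes; TMM scaling of the libraries moved every value by −0.14, and by −0.12 for proliferative against extravascular cells. Among mitochondrial members, the 4 of largest fold change were complex I genes. mt-Nd3 was 79.6 to 177 CPM in extravascular and 33.3 to 48.3 in latent cells (log2 −1.83, SE 0.23, adjusted p = 0.000312), and with reads of its copy added −1.57. mt-Nd2 was 435 to 665 and 179 to 257 CPM (−1.49, SE 0.15), and mt-Nd4l 1229 to 1499 and 540 to 703 (−1.24, SE 0.08). No latent library reached the range of extravascular cells in these 3 genes. mt-Nd6, made from the other strand, was also lower, with 72.6 to 114 CPM in extravascular and 33.3 to 53.3 in latent cells (−1.20, SE 0.17). mt-Co2 was 5510 to 6107 and 2291 to 3440 CPM (−1.12), mt-Nd5 had −0.98, mt-Atp8 −0.90, mt-Nd4 −0.83, mt-Nd1 −0.77, mt-Co1 −0.70 and mt-Co3 −0.52. The values that missed the threshold were mt-Atp6 at −0.77 (SE 0.23, adjusted p = 0.0562) and mt-Cytb at −0.59 (SE 0.21, adjusted p = 0.105). With reads of copies added 12 were called, mt-Cytb remaining the exception, and leaving out any library gave 9 to 12.

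**Figure D2:**
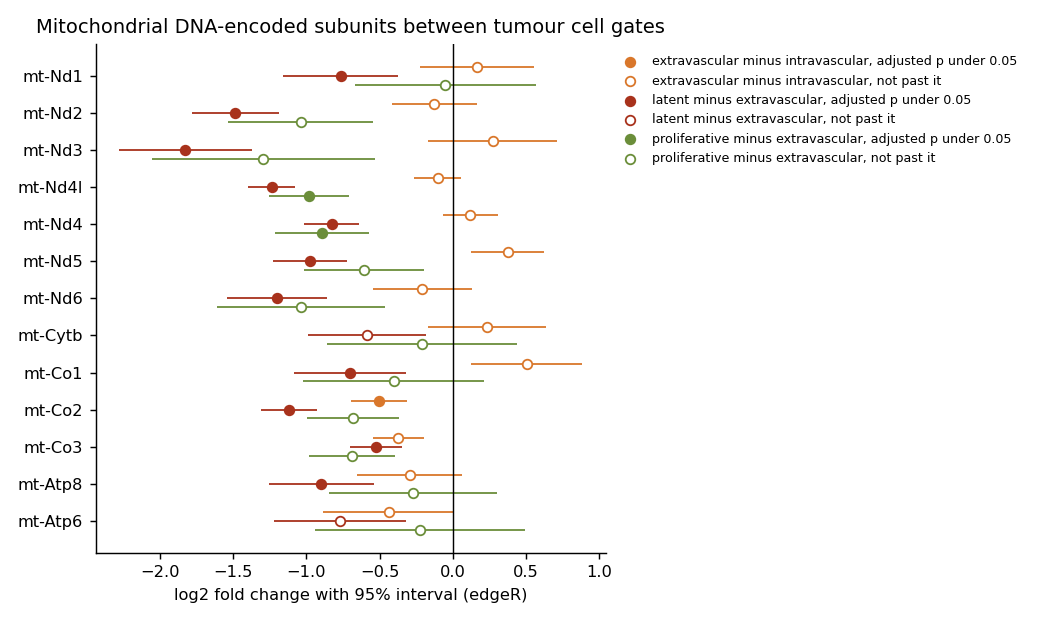
log2 fold changes (x axis, edgeR) with 95% intervals (normal approximation) of the 13 mitochondrial members (y axis) for extravascular against intravascular, latent against extravascular and proliferative against extravascular TCs. Filled points passed an adjusted p of 0.05. All 13 latent values lie below 0, from −1.83 for mt-Nd3 to −0.52 for mt-Co3.

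Nuclear members called lower in latent cells were 15 of 40 tested members of complex I, 3 of 8 of complex III, 10 of 17 of complex IV and 8 of 17 of complex V, and 1 of complex I and 1 of complex IV were higher. Atp5j2, Atp5mpl, Atp5md and Atp5k, membrane-part subunits of ATP synthase and all called lower, had log2 fold changes of −0.73, −0.86, −1.06 and −1.07 (SE 0.08, 0.09, 0.12 and 0.15). Atp5k was 438 to 503 CPM in extravascular and 174 to 298 in latent cells. The accessory complex I subunits Ndufa3 and Ndufa1 had −1.08 and −0.69; Ndufa3 was 258 to 311 CPM and 117 to 158. In complex IV, Cox7c fell by 1.05 on the log2 scale (182 to 247 CPM in extravascular and 94.5 to 132 in latent cells), Cox6b1 by 0.53 and the processed pseudogene Cox6c2 by 0.75; Ndufb4c, another processed pseudogene whose reads cannot be separated from those of Ndufb4, fell by 0.56. With reads of near copies added Cox7c had −1.105, and 39 nuclear members were called in place of 38. Further isoform genes called lower were Ndufa4 (−0.61), Cox7a2 (−0.52), Atp5g3 (−0.35), Cox8a (−0.35) and Cox6a1 (−0.31). The call was lost in 12 of 20 alternatives for Atp5g3; for Cox6a1 it was lost in 9 and the sign turned in 1. Cox4i1 had −0.15 (adjusted p = 0.132), Atp5g1 −0.19 and Atp5g2 −0.19, none past the threshold.

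Both members called higher were of middle length. Ndufs3 rose, with 161 to 181 CPM in extravascular and 228 to 258 in latent cells (log2 0.38, SE 0.09, adjusted p = 0.0196 by edgeR), and Cox7a2l, which takes part in joining complexes III and IV, rose too, with 122 to 142 and 170 to 233 CPM (0.45, SE 0.13, adjusted p = 0.0482), a call lost in 12 of its 20 alternatives. Both calls were lost when libraries were scaled within classes of transcript length, at 0.21 (adjusted p = 0.124) for Ndufs3 and 0.29 (adjusted p = 0.135) for Cox7a2l, and 17.5% of other genes over 1000 and up to 1500 bases were called higher on the common scale. Ndufv2, an iron-sulphur subunit of complex I, was called lower (−0.39, adjusted p = 0.0345). Members of complex II were not called, with Sdha at 0.01, Sdhb at 0.10, Sdhc at 0.35 and Sdhd at −0.05; their summed level was 795 to 954 CPM in extravascular and 986 to 1169 in latent cells, without overlap. The large subunits Atp5a1 and Atp5b of ATP synthase had −0.08 and 0.00, Uqcrc1 of complex III 0.49 (adjusted p = 0.149) and Ndufv1 0.49 (adjusted p = 0.167).

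**Figure D3:**
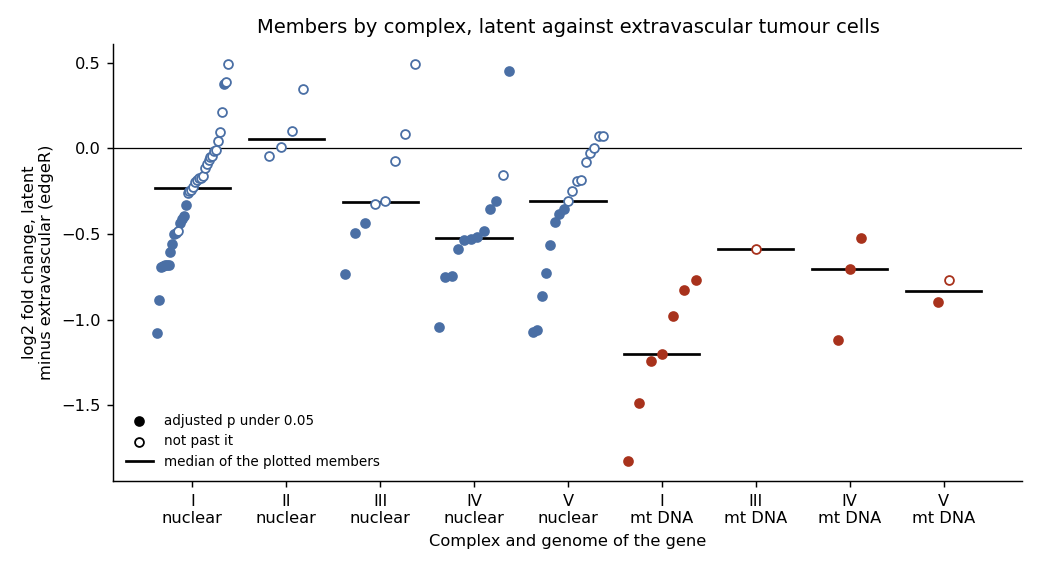
log2 fold changes (y axis, edgeR) of latent against extravascular TCs for 92 tested members with at least 20 CPM in some tumour library, by complex and genome of the gene; filled points passed an adjusted p of 0.05 and lines are medians of the plotted members. Nuclear members of complex II lie near 0 and mitochondrial members of complex I lowest.

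Over 85 nuclear members with a length, Spearman's rho between length and log2 fold change was 0.56 for latent against extravascular cells, as a description across genes that share libraries, against 0.01 over 3394 other genes, and 0.05 with libraries scaled within classes of transcript length. Among 42 members of up to 700 bases, 0 were called higher and 23 lower with a median of −0.49. Other genes of that length and a mean level over 5 log2 CPM had a median of −0.36, and 49.1% of those 405 genes were called lower. Members over 700 and up to 1000 bases had a median of −0.25 against −0.03 for other genes, and those over 1000 and up to 1500 bases 0.07 against 0.15. Above that length the medians did not rise further, with −0.04 against 0.06 for the 11 members of up to 2500 bases and −0.07 against −0.12 for the 4 longer ones. The share of reads from other genes of up to 700 bases was 25.9% to 28.5% in extravascular libraries and 21.5% to 23.5% in latent ones. When libraries were scaled within classes of transcript length, 4 nuclear members were called higher (Atp5o, Ndufa11, Ndufv3 and Uqcrq) and 21 lower in place of 2 and 36, beside 3.62% and 4.62% of all genes under that scaling, and Cox6a1 and Cox8a changed sign to 0.09 and 0.05. Atp5k and Atp5j2 stayed called lower. Of the 42 members of up to 700 bases 4 were then higher and 8 lower, where 19.8% of other genes of that length were higher and 20.5% lower. Mitochondrial members were left on the common scale there, so their 11 calls there were the same by construction. In ECs the same rho over 82 members was −0.51 for day 1.5 against day 0, 0.21 for day 3.5 against day 1.5 and −0.33 for day 3.5 against day 0, and over 4766 other genes it was −0.05, 0.00 and −0.05.

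**Figure D4:**
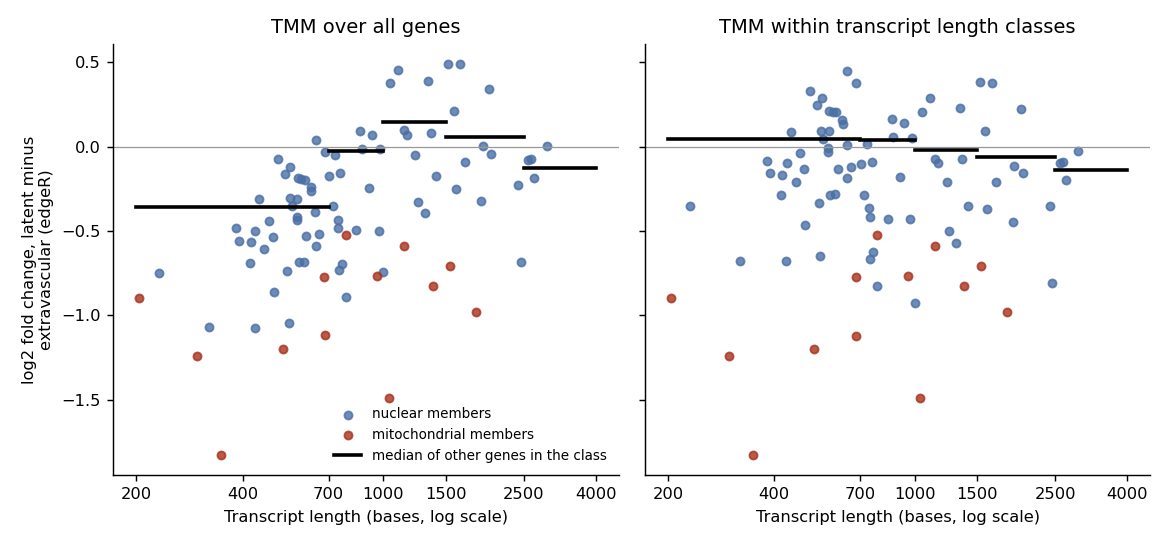
log2 fold change of latent against extravascular TCs (y axis, edgeR) by transcript length (x axis, log scale) for members, with libraries scaled over all genes (left) or within length classes (right); black lines are medians of other well-expressed genes per class. On the left the line for transcripts up to 700 bases is at −0.36; on the right it is at 0.04.

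Proliferative TCs were a single pool, compared with the same extravascular libraries as latent cells; the tests assume that this lone pool varies like the other gates. Their nuclear sum was 41156 CPM, inside the latent range, their mitochondrial sum 23858, above all 4 latent and below all 4 extravascular libraries, and their ratio 0.580, inside the extravascular range of 0.539 to 0.778. Against extravascular cells, 3 of 86 nuclear members were lower and 0 higher, beside 0.696% of all genes (0.135% higher, 0.561% lower): Cox4i1 (2521 CPM against 3348 to 3627, log2 −0.59, SE 0.10, adjusted p = 0.0242), Atp5j2 (550 against 726 to 829, −0.65) and Uqcrq (511 against 702 to 835, −0.66). Of the mitochondrial members, mt-Nd4l (741 CPM against 1229 to 1499, −0.98) and mt-Nd4 (718 against 1116 to 1329, −0.89) were lower, and all 13 had a negative value with a median of −0.68; with reads of copies added 3 were called, and the log2 ratio difference was −0.20. Over 85 nuclear members rho between transcript length and log2 fold change was 0.68, against −0.01 over 3394 other genes, and of 405 other genes of up to 700 bases 11.6% were called lower, against 1 of 42 members of that length. With libraries scaled within length classes, where 0.369% of all genes were called, Cox4i1 alone among nuclear members was called lower (−0.49) and Atp5g2 higher (0.63), with Atp5j2 and Uqcrq no longer called. These calls share the extravascular libraries with the latent comparison, and they changed with single libraries: the 3 nuclear calls became 1 without extravascular mouse 5 or 7 or intravascular mouse 7 or 8 and 0 without extravascular mouse 8 or latent mouse 9 or 11, and the 2 mitochondrial calls became 1 without extravascular mouse 7 or 8 and 0 without latent mouse 9 or 11.

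Latent against proliferative cells gave 0 member calls and 0 calls over all genes (0%) by edgeR; before adjustment 11 nuclear and 3 mitochondrial members were below p = 0.05, as were 977 of all genes, while DESeq2 gave 3 calls among nuclear members (Cox4i1, Uqcrq and Ndufv2) and 109 over all genes. Cox4i1 was 3228 to 3594 CPM in latent and 2521 in proliferative cells (log2 0.43, 95% interval 0.25 to 0.62, adjusted p = 0.674). The log2 ratio of latent cells was −0.32 from that of the pool, which lay above all 4, and −0.23 with reads of copies added.

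Cells of the culture pool had a nuclear sum of 44126, a mitochondrial sum of 24503 CPM and a ratio of 0.555, within the range of the day 1.5 gates for the ratio but below all 8 of them in both sums. This pool was not part of the fit. Uqcrb was 340 CPM in culture and 478 to 770 in the day 1.5 gates, and Atp5b was 1643 in culture and 528 to 1385 there.

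Endothelial cells were also divided by the marker lists of the study into 602 aCap-like (aerocyte) and 1580 gCap-like (general capillary) cells of 2479. The lists hold no member. The class is a range of a score, with 236 cells within 0.1 of the aCap score at its cut; the median aCap-like cell had 2706 CPM over the aCap list and 21.7 over the gCap list, the median gCap-like cell 0 and 8173. aCap-like cells held less mitochondrial message in every mouse. Their mitochondrial sum was 12500 to 18512 CPM against 18582 to 25632 in gCap-like cells, a mean log2 difference of −0.65 ± 0.17 (SD, n = 10 mice), while the nuclear sum was 28325 to 43493 against 27627 to 43625 (−0.02 ± 0.09). The ratio was 0.287 to 0.570 against 0.426 to 0.894, lower in 10 of 10 mice by −0.63 ± 0.17, or −0.62 with reads of copies added. The ratio does not depend on how libraries are scaled. aCap-like cells had a median of 382688 reads and 2681 genes and gCap-like cells 329364 and 2476.5; the part of this in the result was not tested.

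**Figure D5:**
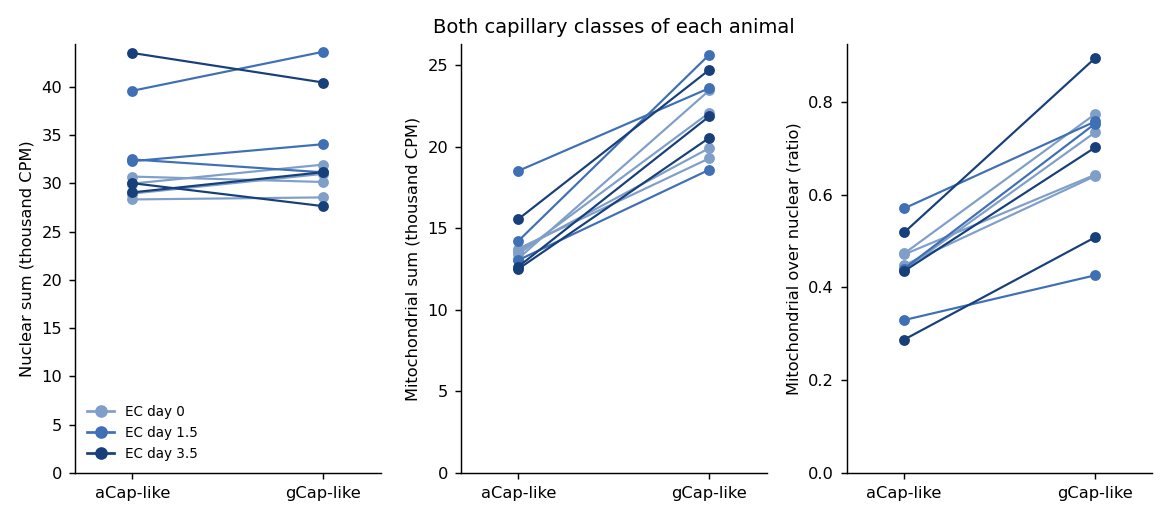
Summed CPM of nuclear members (left), of mitochondrial members (middle) and their ratio (right) in aCap-like and gCap-like cells; each line is 1 mouse, coloured by day. The mitochondrial sum and the ratio are lower in aCap-like cells in 10 of 10 mice, while the lines of the nuclear sum run both ways.

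As shares of reads, mt-Atp6, mt-Atp8, mt-Co1, mt-Co2, mt-Co3, mt-Cytb, mt-Nd1, mt-Nd4 and mt-Nd5 were lower in aCap-like cells in 10 of 10 mice. mt-Co1 had a median of 994 CPM (593 to 1444) against 1893 (1141 to 2562), and mt-Nd5 369 (285 to 529) against 651 (436 to 812). mt-Nd2 and mt-Nd4l were lower in 9 of 10, mt-Nd6 in 8 and mt-Nd3 in 7. The gene test scales libraries by TMM, which added 0.37 log2 to every aCap-like value, and on that scale the median was −0.26 for mitochondrial and 0.30 for nuclear members (all genes −0.02). There mt-Nd5 was called lower (−0.46, SE 0.13, adjusted p = 0.0261), and 6 of 79 nuclear members were called higher and 0 lower, beside 8.14% of 13429 genes (4.48% higher, 3.66% lower). Other genes with a mean level over 5 log2 CPM were called higher more often than that. Of those up to 700 bases 11.1% were, against 4 of 36 members. Over 700 and up to 1000 bases it was 12.8% against 1 of 16, and over 1000 and up to 1500 bases 12.8% against 1 of 11. Members were thus not called higher more often than such genes. With the mouse as a block, 11 nuclear members were higher and 4 mitochondrial ones lower (mt-Atp6, mt-Co1, mt-Nd1 and mt-Nd5), beside 4.33% of all genes higher and 4.55% lower in that fit.

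The 6 were Sdhb, the iron-sulphur subunit of complex II (log2 0.65, SE 0.14, adjusted p = 0.00308), Cox7c (0.80), Ndufb9 (0.57), Ndufs5 (0.67), Ndufa11 (0.67) and Cox6a1 (0.52). As shares of reads the differences were smaller: Sdhb had a median of 488 CPM (432 to 692) in aCap-like and 403 (305 to 590) in gCap-like cells and was higher in 9 of 10 mice, Cox7c 233 and 168 and higher in 9, Ndufs5 411 and 291 and higher in 7. Cox4i1 was higher in 3 of 10. The count of nuclear calls was 3 without day 0 mouse 4. mt-Nd5 was not called without day 1.5 mouse 5 or day 3.5 mouse 9, nor in cells of at most 5% mitochondrial reads. With libraries scaled within classes of transcript length, Sdhb and Ndufb9 were no longer called. Of the members of up to 700 bases 6 of 36 were then called higher, beside 11.4% of other well-expressed genes of that length.

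Genes that serve the chain were counted in the same way for latent against extravascular cells. Their counts were not split by transcript length. Of other well-expressed genes in this comparison, 49.1% of those up to 700 bases were called lower, as were 19.7% of those over 700 and up to 1000 bases. The part of length in the list counts was not tested. Of 38 assembly factors, 0 were higher and 8 lower, beside 3.6% and 4.97% of all genes. They were led by Cox17, a copper carrier for complex IV (log2 −0.82), Uqcc2 (−0.55) and Ndufaf2 (−0.78). Of 16 electron carriers and cofactor genes, Etfb rose (0.63) and Cycs, cytochrome c, fell (−0.72). Of 78 mitochondrial ribosome genes, 3 were higher and 10 lower, led by Mrpl52, Mrps36 and Mrps21, where 3.6% of all genes were higher and 4.97% lower. Among 15 genes for the expression of mitochondrial DNA 1 was higher (Mterf4, 0.89) and 0 lower. Of 13 tricarboxylic acid cycle genes 1 was higher (Idh3g, 0.77), and of 8 regulators and 20 glycolysis genes 0 were called, which are counts from edgeR at an adjusted p of 0.05.

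In the other comparisons these lists gave few calls. Cycs (−0.73) and Coq7 (−0.69) were lower outside the vessels than inside, with 1 of 78 mitochondrial ribosome genes higher and 5 lower, beside 0.416% and 0.535% of all genes. In aCap-like against gCap-like cells, 4 mitochondrial ribosome genes, 2 assembly factors (Sdhaf4 and Coa3) and 1 cycle gene (Idh3a, 2.55) were higher, of 78, 38 and 13 tested and beside 4.48% of all genes. Pdk1 (−3.92), a kinase that restrains entry of pyruvate into the cycle, and Pfkl (−2.73) of glycolysis were lower. They were 2 of 15 tested genes of the glycolysis list, beside 3.66% of all genes called lower.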

How the data were processed

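Reads were made by the authors with a modified SMART-Seq2 protocol on polyA RNA, without molecular identifiers; per the labels' processing notes, bcl2fastq, Salmon 0.7.2 and GRCm38 were used, and the deposited tables hold estimated counts per gene and cell. Deposited log10 tables, scaled by the authors to housekeeping genes, gave the kept cells. Estimated counts were summed over kept cells per animal or pool, as the deposited annotation ties cells to mice, and rounded. Proliferative cells, 4 replicates in the labels, were annotated to 1 animal, mouse 12, which is also a latent mouse, and used as 1 pool, so the fit held 13 TC libraries in place of the 16 planned; EC fits held 10. Animals are the replicates. Tests used edgeR 4.0.16 (filterByExpr, TMM, quasi-likelihood, Benjamini-Hochberg, 0.05) in R 4.3.3, with DESeq2 1.42.0 as an alternative, and were tried on counts simulated with the spread of these libraries. Over the EC days 0% to 2% of genes changed 2-fold were called there, and 12% to 18% of those changed 4-fold. These shares were 8% and 30% for aCap-like against gCap-like cells. Over the tumour cell comparisons they were 10% to 58% and 60% to 96%. EC classes came from Seurat 5.3.0 module scores. Sums, ratios and lists have no test. Intervals cover the spread between libraries, and limits at a count of 0 counting error only.

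Members and lists were chosen with earlier results of these data known. Named genes were the 13 mitochondrial genes, isoform families, up to 10 called nuclear members per direction and comparison, the member of smallest p where none was called, and per complex the member with most reads; Uqcrc1, Ndufv1 in latent cells, Sdha, Sdhc, Sdhd, Atp5a1, Atp5b, Atp5o, Ndufv2, Ndufv3, Atp5g2 in proliferative cells, Ndufs6 levels and the genes called under the animal block were named after their values were seen. Gates of the same mice and classes of the same animals are paired by animal; the median correlation of deviations was 0.151 over the 4 pairs of TC libraries and 0.0895 over the 10 of EC classes.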

Additional observations from a re-analysis of the deposited data

Results flagged for a closer look

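Of 202 groups of values examined for a sample far from the others, 8 had one; chance gives about 1 in 20. In day 0 ECs, mouse 4 was high in Cox7a2l (286 CPM) and in Ndufa4 (979 CPM), and mouse 1 in Ndufs6 (366 CPM). In TCs, mouse 8 was low in mt-Nd4l among intravascular cells (1298 CPM), mouse 7 was high in mt-Nd1 among extravascular cells (3959 CPM), and mouse 10 was low among latent cells in the nuclear sum (38132 CPM) and in Cox6a1 (1444 CPM). In aCap-like cells, mouse 7 was high in the mitochondrial sum (18512 CPM).

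Reads assigned to the chromosome 1 copies of mitochondrial genes lie outside the members. They were present in all libraries, at no less than 12393 CPM in the 10 EC and 10911 CPM in the 14 TC libraries.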

How the results depend on the processing

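Extravascular against intravascular cells gave 6 nuclear calls, which became 32 with DESeq2 (5.35% of all genes called), 3 with the animal as a replicate block and 3 when these gates alone were fitted (leave-one-out 0 to 20); the 1 mitochondrial call became 2 with DESeq2, 0 with copies added and 2 in cells of at most 5% mitochondrial reads (0 to 2). Latent against extravascular cells gave 38 nuclear calls (leave-one-out 31 to 38) and 11 mitochondrial calls (9 to 12). Scaled within length classes there were 25 nuclear calls, and Cox6a1 (log2 fold change 0.0905) and Cox8a (0.0474) reversed. The log2 ratio difference of these gates was −0.48 (leave-one-out −0.57 to −0.38), and −0.23 in cells of at most 5% mitochondrial reads. Ranges in parentheses are leave-one-out ranges of the main fit in the following sentences too. Proliferative against extravascular cells gave 15 nuclear calls with DESeq2 (2.78% of all genes), 1 with DESeq2 size factors and 1 with no filter (0 to 4), and 7 mitochondrial calls with DESeq2 (0 to 3). Latent against proliferative cells gave 3 with DESeq2 (0.416%). aCap-like against gCap-like cells gave 15 nuclear calls with DESeq2 (11.2% of all genes) and 11 with the replicate block (8.88%) (3 to 9), and 2 mitochondrial calls with copies added, 0 in cells of at most 5% mitochondrial reads and 4 with the block (0 to 1). The cause of these shifts was not tested. No paired analysis by animal was possible for the other comparisons because their libraries came from different animals, other than mouse 12, which gave both the proliferative pool and 1 latent library; with the sort day as a covariate the EC days gave 0 calls. Leaving out a library gave log2 ratios of −0.29 to 0.09, −0.10 to 0.41 and −0.25 to 0.26 over the EC days, 0.04 to 0.23 between day 1.5 gates, −0.24 to −0.07 for proliferative against extravascular, −0.39 to −0.23 for latent against proliferative and −0.66 to −0.61 for aCap-like against gCap-like cells. The planned fit with 4 proliferative libraries was not run.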
